A study of Sus scrofa with 33 samples.

Results

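The genes described here are 7 genes of the extracellular matrix and its turnover: the matricellular genes CYR61 (also called CCN1), THBS1 and TNC, the protease-system genes TIMP1 and PLAU, and the structural genes COL3A1 and LUM. They were followed in right ventricular myocardium of pigs (Sus scrofa) and are 7 of the 6765 genes that the array measured with a probe set annotated to a single gene. They were chosen by their measured change after 120 min of pulmonary banding against baseline, with earlier results of these data in view. That change is therefore given as a description, and the tests are kept for the later biopsy and for differences between the arms. THBS1 had 5 probe sets and the other 6 genes had 1 each, 11 in all, and each gene is represented by its brightest probe set, that with the highest mean over the 33 arrays.

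Biopsies came from the right ventricular free wall of 11 pigs, each sampled 3 times, which gave 33 arrays with 1 array per biopsy. Every pig had a baseline biopsy and a biopsy after 120 min of pulmonary banding, a narrowing of the pulmonary artery used to produce right ventricular failure, and was then randomised. In the shunt arm (6 pigs) the last biopsy followed a further 60 min of banding with a modified Glenn shunt, a surgical connection through which blood of the upper body reaches the pulmonary artery without passing the right ventricle. In the control arm (5 pigs) the last biopsy followed 60 min of further banding with no shunt. All biopsies after baseline thus share the banding, and no pig was sampled over the same hours without it. The effect of banding and that of time, anaesthesia, surgery and the earlier biopsy therefore cannot be told apart. Age, sex and breed were not stated in the labels.

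Matricellular proteins are secreted into the matrix and act on cells through integrins and other receptors, rather than serving as scaffold. Their genes are mostly quiet in healthy adult heart muscle and are known, mainly from mouse and human work, to be switched on by stretch, injury and inflammation. The matrix itself is held by fibrillar collagens and small proteoglycans and is broken down by the plasminogen system and the metalloproteinases, which TIMP proteins inhibit.

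All values are log2 summaries made by the authors with RMA, a method that corrects the background, brings the arrays to a common distribution and combines the probes of each set. Values of different probe sets are not on a common scale, so no gene's level is set against that of another. Means of the 11 measured ventricular cardiomyocyte markers lay between 13.32 and 13.78 on every array. The levels of spiked-in RNAs fell into 3 sets of arrays, namely shunt pigs 1 to 4, shunt pigs 5 and 6, and the control pigs, so that array set and arm cannot be told apart in any comparison between the arms. The tissue is a mixture of cells, and fewer cells of a type cannot be told apart from less RNA per cell.

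CYR61, which encodes a secreted integrin-binding protein that is an immediate early gene, had the largest change of the 7 genes. In the shunt arm its lowest, median and highest values were 8.67, 9.43 and 12.12 at baseline, 12.71, 13.03 and 13.48 at 120 min, and 11.37, 13.15 and 13.68 at the last biopsy. In control pigs 1 to 5 it stood at 9.09, 10.17, 9.49, 8.52 and 8.85 at baseline, at 12.74, 12.003, 12.34, 11.93 and 12.24 at 120 min, and at 12.17, 12.94, 13.05, 11.91 and 11.44 at the last biopsy. CYR61 was higher at 120 min in 11 of 11 pigs, by 3.17 ± 0.27 on the log2 scale (fitted change ± SE), or 9.03-fold. The smallest change, 1.04, was that of shunt pig 4, whose baseline value of 12.12 was the highest of all baselines, and it was the only baseline above any value of a later biopsy.

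THBS1 encodes thrombospondin 1, which activates latent TGF-beta and restrains the growth of vessels. Its values in the shunt arm (lowest, median and highest) were 8.81, 9.73 and 11.27 at baseline, 11.92, 12.03 and 12.22 at 120 min, and 11.18, 12.25 and 12.81 at the last biopsy. The control pigs 1 to 5 had 9.66, 9.78, 9.70, 9.67 and 9.76 at baseline, 11.89, 12.08, 11.11, 12.02 and 11.73 at 120 min, and 11.34, 12.65, 11.83, 11.71 and 12.08 at the last biopsy. The baselines were tight in the control arm (SD 0.055) and wide in the shunt arm (SD 0.98), where pigs 2 and 4 began high, as they did for CYR61. The level at 120 min was 2.08 ± 0.21 above baseline (4.22-fold) and higher in 11 of 11 pigs, with changes of 0.96 in shunt pig 2 and 0.66 in shunt pig 4 against 1.42 to 3.41 in the others.

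The other 4 THBS1 probe sets were also higher at 120 min, but by different amounts. A pair of them had changes of 2.44 ± 0.29 and 1.69 ± 0.27, both higher in 11 of 11 pigs. The remaining pair had 0.75 ± 0.19 and 0.30 ± 0.08, each higher in 10 of 11 pigs. The size of the THBS1 change thus depended on the probe set, while its direction at 120 min did not.

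**Figure D1:**
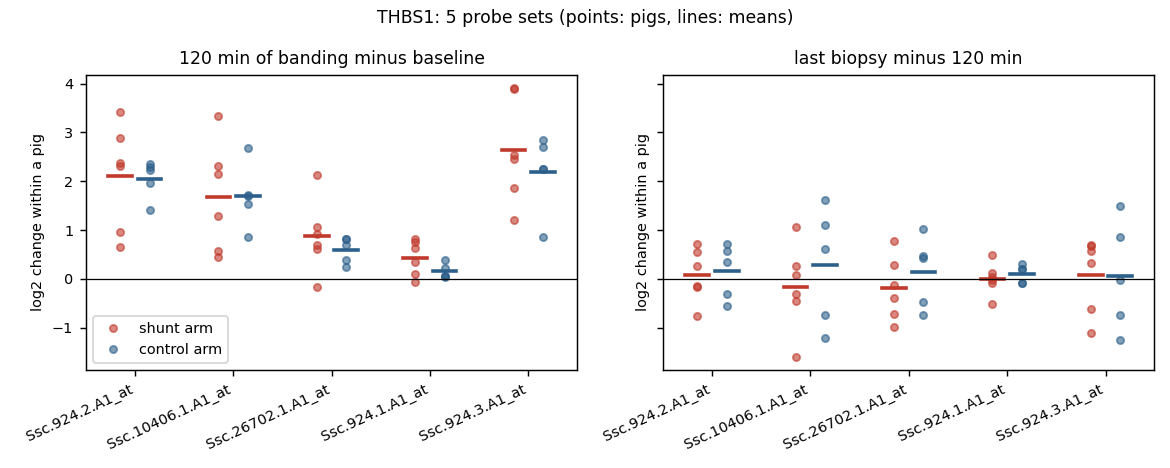
Change of the 5 THBS1 probe sets within each pig, in log2 units, for 120 min of banding minus baseline (left panel) and for the last biopsy minus 120 min (right panel). Points are single pigs, shunt arm in red and control arm in blue, and short lines are means; the first change is above 0 for nearly all pigs and the later change scatters around 0 in each probe set.

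TNC encodes tenascin C, a large matrix glycoprotein scarce in normal adult myocardium and made again around injury. Its lowest, median and highest values in the shunt arm were 5.36, 5.61 and 5.98 at baseline, 7.10, 7.33 and 7.90 at 120 min, and 6.24, 7.78 and 10.02 at the last biopsy. Among control pigs 1 to 5 the values were 5.65, 5.77, 5.81, 5.79 and 6.21 at baseline, 6.56, 7.79, 5.57, 5.55 and 6.32 at 120 min, and 6.59, 8.24, 5.94, 6.05 and 6.89 at the last biopsy. At 120 min every shunt pig was above every shunt baseline, whereas control pigs 3 and 4 lay slightly below their own baselines and pig 5 only 0.11 above its own. The change at 120 min averaged 1.18 ± 0.29 over all pigs (2.26-fold, higher in 9 of 11), with 1.73 ± 0.39 in shunt pigs and 0.51 ± 0.43 in control pigs. The control value rested on pig 2, since it was 0.14 without that animal.

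TIMP1, the inducible tissue inhibitor of metalloproteinases, was higher in every pig at 120 min. The shunt arm ran from 8.02 through a median of 8.40 to 8.74 at baseline, from 9.75 through 10.52 to 11.55 at 120 min, and from 9.54 through 11.14 to 13.08 at the last biopsy. For control pigs 1 to 5 the baselines were 8.24, 8.59, 7.69, 8.06 and 8.31, the values at 120 min were 10.42, 10.87, 8.92, 9.90 and 9.15, and those of the last biopsy were 9.65, 11.39, 9.03, 9.004 and 9.59. TIMP1 was the only one of the 7 genes for which all values at 120 min exceeded all baselines when both arms were pooled. The same held for 0.571% of all 23999 probe sets. The change was 2.02 ± 0.26 (4.05-fold), with 2.31 ± 0.36 in shunt pigs and 1.67 ± 0.39 in control pigs.

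PLAU encodes urokinase, the protease that turns plasminogen into plasmin at the cell surface. Shunt pigs had lowest, median and highest values of 7.42, 7.64 and 8.01 at baseline, 8.84, 9.87 and 10.19 at 120 min, and 8.86, 9.80 and 11.18 at the last biopsy. Control pigs 1 to 5 had 8.01, 7.92, 7.56, 7.66 and 8.30 at baseline, 10.58, 11.12, 8.17, 10.07 and 8.79 at 120 min, and 9.36, 11.02, 9.17, 8.62 and 8.95 at the last biopsy. The control pigs split at 120 min, with changes of 0.61 in pig 3 and 0.50 in pig 5 against 2.40 to 3.20 in pigs 1, 2 and 4. Over all pigs the level at 120 min was 1.98 ± 0.24 above baseline (3.93-fold, higher in 11 of 11).

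**Figure D2:**
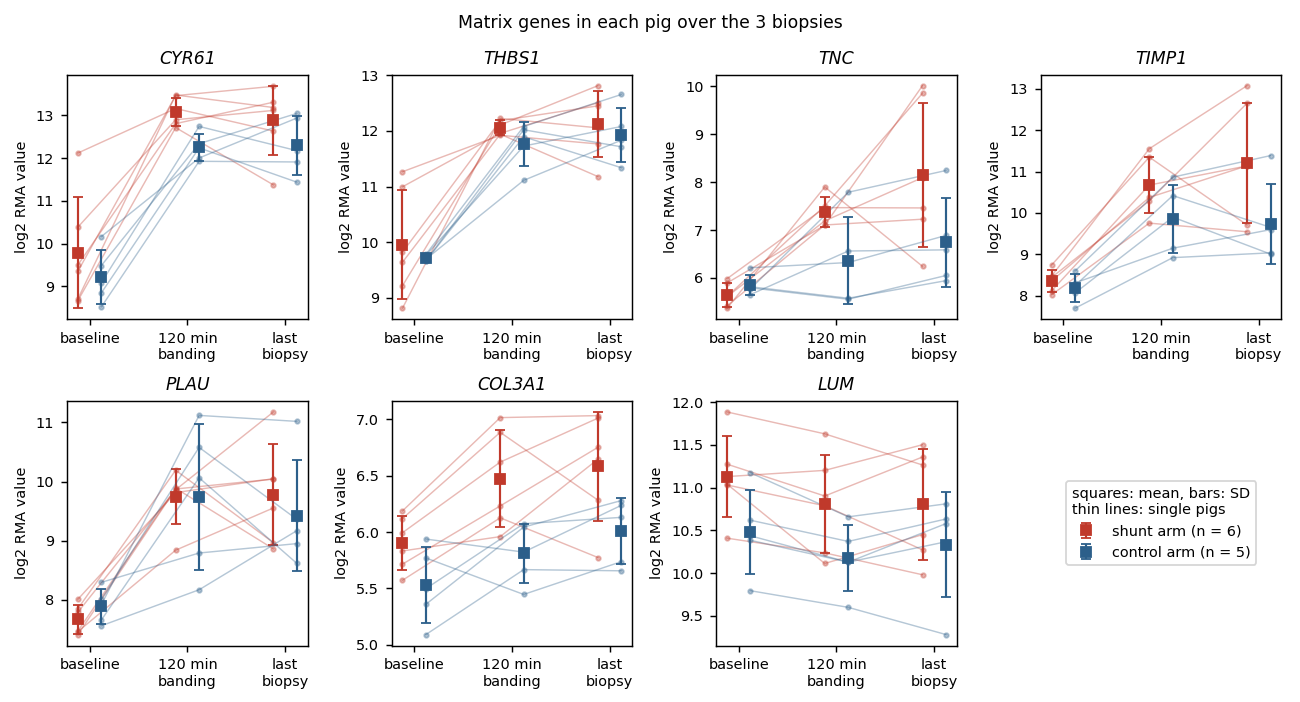
Log2 RMA values of the 7 genes at baseline, after 120 min of banding and at the last biopsy, in the shunt arm (red, 6 pigs) and the control arm (blue, 5 pigs). Thin lines join the biopsies of 1 pig, squares are means and bars are SD; CYR61, THBS1, TIMP1 and PLAU are higher at 120 min than at baseline in all 11 pigs, TNC spreads widely at the last biopsy, and LUM is slightly lower at 120 min in 10 pigs.

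The structural genes had far smaller changes. COL3A1 encodes type III collagen, a fibrillar collagen of the heart interstitium. Its lowest, median and highest values in shunt pigs were 5.57, 5.91 and 6.19 at baseline, 5.96, 6.43 and 7.01 at 120 min, and 5.77, 6.70 and 7.03 at the last biopsy. In control pigs 1 to 5 it measured 5.36, 5.09, 5.94, 5.499 and 5.77 at baseline, 6.04, 5.67, 5.82, 6.07 and 5.45 at 120 min, and 6.28, 5.66, 6.24, 6.13 and 5.74 at the last biopsy. The ranges at 120 min and at the last biopsy overlapped the baseline range in both arms, and the change at 120 min was 0.44 ± 0.11 (1.35-fold), with control pigs 3 and 5 lower than at baseline.

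LUM encodes lumican, a small leucine-rich proteoglycan that binds collagen fibrils and spaces them. Its shunt arm values ran from 10.41 through a median of 11.09 to 11.89 at baseline, from 10.11 through 10.85 to 11.63 at 120 min, and from 9.98 through 10.86 to 11.50 at the last biopsy. The control pigs 1 to 5 had 9.79, 10.62, 10.38, 11.17 and 10.44 at baseline, 9.60, 10.37, 10.13, 10.66 and 10.13 at 120 min, and 9.28, 10.63, 10.37, 10.81 and 10.58 at the last biopsy. The pigs differed from each other by more than any pig changed, but within pigs LUM was lower at 120 min in 10 of 11, by -0.31 ± 0.10 on the log2 scale. Shunt pig 4 had the largest fall, of -0.93.

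For scale, 29% of all 23999 probe sets passed an adjusted p of 0.05 in the limma fit at 120 min, with 11.6% higher and 17.4% lower. All 7 genes passed there, 6 higher and 1 lower, which follows from how they were chosen. In the shunt arm every array at 120 min lay above every baseline array for 5 of the 7 genes (CYR61, THBS1, TNC, TIMP1 and PLAU), as it did for 3.95% of all probe sets, and at the last biopsy for 3 (TNC, TIMP1 and PLAU), against 3.77%. In the control arm this held for 3 genes at 120 min (CYR61, THBS1 and TIMP1), against 2.38%, and for 4 at the last biopsy (CYR61, THBS1, TIMP1 and PLAU), against 2.25%. These counts describe the choice of genes and carry no test.

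The change at 120 min, which preceded the randomised treatment, was compared between the arms. No probe set on the array passed (0%), although 1655 had an unadjusted p under 0.05. TNC had the largest difference of the 7 genes, with 1.73 in shunt pigs and 0.51 in control pigs, a difference of 1.22 ± 0.58 (95% CI 0.017 to 2.42, limma adjusted p = 0.713). The other 6 genes had differences between -0.012 for LUM and 0.64 for TIMP1, with adjusted p-values from 0.842 to 0.993. Beside TNC, the mean of the 6 measured neutrophil and monocyte markers differed from baseline by 0.75 ± 0.42 in shunt pigs and 0.049 ± 0.13 in control pigs (SD over pigs), and at 120 min it lay between 5.996 and 7.26 in shunt pigs and between 5.83 and 6.101 in control pigs. Of these markers S100A9, CD14 and TYROBP were higher at 120 min over all pigs and S100A8, S100A12 and FCGR3A did not pass. The mean 120 min difference of 2 erythrocyte markers was -0.062 ± 0.27 in shunt pigs and -0.71 ± 0.74 in control pigs, that of 6 smooth muscle and pericyte markers 0.41 ± 0.25 in shunt pigs and 0.15 ± 0.27 in control pigs, and that of 5 resident macrophage markers 0.32 ± 0.31 in shunt pigs and 0.21 ± 0.33 in control pigs. Over all pigs neither erythrocyte marker passed, CNN1 and TAGLN of the smooth muscle markers rose, and so did CD163 and MRC1 of the macrophage markers. The log ratio of the 3' to the 5' GAPDH probe set, a sign of RNA integrity, was 0.72 ± 0.12 in shunt pigs and 0.96 ± 0.11 in control pigs at 120 min. The part of these measures in the TNC difference was not tested.

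The question that the randomised design puts is what a further 60 min with the shunt did compared with a further 60 min of banding alone. The later change, last biopsy minus 120 min, shares the 120 min arrays with the comparison that chose the genes. No probe set passed in the shunt arm (0%, with 2146 at an unadjusted p under 0.05), in the control arm (0%, with 737) or in the difference between the arms (0%, with 737). None of the 7 genes therefore passed in limma, nor did any reach an unadjusted p under 0.05, and what follows gives the sizes and their intervals.

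The last biopsy minus 120 min was, for CYR61, -0.29, 0.22, 0.22, -0.53, -1.34 and 0.50 in shunt pigs 1 to 6 and -0.57, 0.93, 0.71, -0.015 and -0.80 in control pigs 1 to 5, with both directions in each arm. Its fitted later change was -0.20 ± 0.36 in shunt pigs and 0.052 ± 0.40 in control pigs, a difference of -0.26 (95% CI -1.36 to 0.85). For THBS1 the later values were 0.71, 0.55, -0.17, -0.16, -0.76 and 0.27 in shunt pigs 1 to 6 and -0.56, 0.58, 0.72, -0.31 and 0.35 in control pigs 1 to 5, again in both directions. Its fitted later change was 0.073 ± 0.29 in shunt pigs and 0.16 ± 0.31 in control pigs, a difference of -0.085 (95% CI -0.96 to 0.79). For CYR61 in shunt pigs the 95% interval ran from 0.517-fold to 1.46-fold of the level at 120 min, so a partial return towards baseline within it was not detectable with these numbers of pigs.

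TNC and TIMP1 were higher at the last biopsy than at 120 min in some shunt pigs and lower in others. The later values of TNC were 0.90, 2.92, 0.12, -1.66, -0.0065 and 2.35 in shunt pigs 1 to 6 and 0.024, 0.45, 0.37, 0.50 and 0.57 in control pigs 1 to 5. The fitted later change in the shunt arm was 0.77 ± 0.39 (95% CI -0.040 to 1.58, limma adjusted p = 0.586). By its log2 value alone, without regard to the SE, it ranked 12 of 23999 from the highest. In the control arm the fitted later change was 0.38 ± 0.43. The difference between the arms was 0.39 (95% CI -0.81 to 1.59). The shunt value was 0.34 without pig 2, 0.46 without pig 6 and 1.26 without pig 4.

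For TIMP1 the last 60 min gave 1.53, 2.36, 0.46, -1.64, -0.21 and 0.77 in shunt pigs 1 to 6 and -0.77, 0.52, 0.12, -0.90 and 0.45 in control pigs 1 to 5. The fitted change was 0.54 ± 0.36 in shunt pigs (limma adjusted p = 0.695) and -0.12 ± 0.39 in control pigs. By its log2 value alone the difference of 0.66 ranked 13 of 23999 from the highest, yet its interval ran from -0.44 to 1.75. The difference was 0.30 without shunt pig 2 and 1.10 without shunt pig 4, and the shunt value 0.18 and 0.98 without those pigs.

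PLAU had no common direction after 120 min in either arm. Its later changes were 0.17, 1.31, 0.71, -1.02, -1.22 and 0.23 in shunt pigs 1 to 6 and -1.22, -0.10, 1.00, -1.45 and 0.16 in control pigs 1 to 5. The fitted values were 0.030 ± 0.33 in shunt pigs and -0.32 ± 0.36 in control pigs, a difference of 0.35 (95% CI -0.66 to 1.37). The control value was -0.65 without control pig 3 and -0.040 without control pig 4, and the difference 0.68 and 0.070 without those pigs. In the control arm the 3 pigs with the highest PLAU at 120 min were those that were lower at the last biopsy, and pigs 3 and 5, which had been lowest, were higher. The value at 120 min is subtracted in the later change, so part of this pattern is built in.

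COL3A1 had a later change of 0.11 ± 0.14 in shunt pigs and 0.20 ± 0.16 in control pigs, a difference of -0.087 (95% CI -0.52 to 0.35). LUM had -0.0070 ± 0.13 in shunt pigs and 0.16 ± 0.14 in control pigs, a difference of -0.16 (95% CI -0.56 to 0.23). These were the narrowest intervals of the 7 genes, and those of COL3A1 came from a dim probe set.

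**Figure D3:**
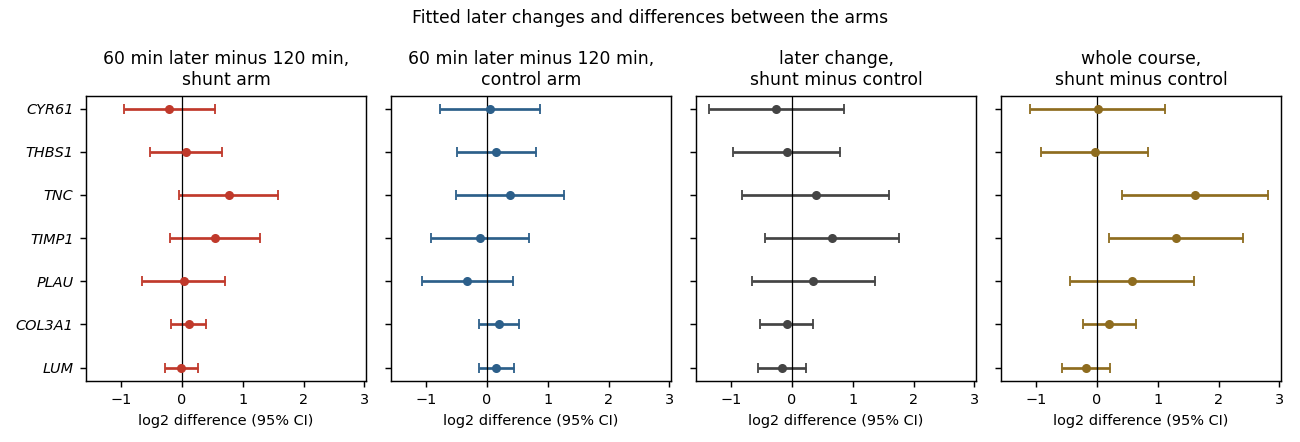
Fitted log2 differences with 95% confidence intervals for the 7 genes: the later change after 120 min in shunt pigs and in control pigs, the difference of these between the arms, and the difference between the arms over the whole course. The intervals of the first 3 panels all include 0, and in the last panel those of TNC and TIMP1 do not, although neither passed after adjustment over the 23999 probe sets.

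In shunt pig 2 TNC, TIMP1 and PLAU were each higher at the last biopsy than at 120 min by over 1 log2 unit, and in shunt pig 4 each was lower by over 1 unit. Beside this, the mean of the neutrophil and monocyte markers changed by 1.00 in shunt pig 2 and by -0.73 in shunt pig 4, the highest and the lowest of the 11 pigs, and between 0.10 and 0.81 in the other 9. At the last biopsy this mean lay between 6.19 and 7.82 in shunt pigs and between 6.05 and 6.44 in control pigs. Its part in the values of TNC, TIMP1 and PLAU was not tested. The fibroblast marker mean changed by -0.25 in shunt pig 2 and by 0.18 in shunt pig 4, and the resident macrophage mean by -0.22 and 0.18. In the same order the erythrocyte mean changed by 0.74 and -0.098, the platelet mean by 0.094 and -0.23, and the lymphocyte mean by 0.18 and -0.26. The part of these means was not tested either.

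**Figure D4:**
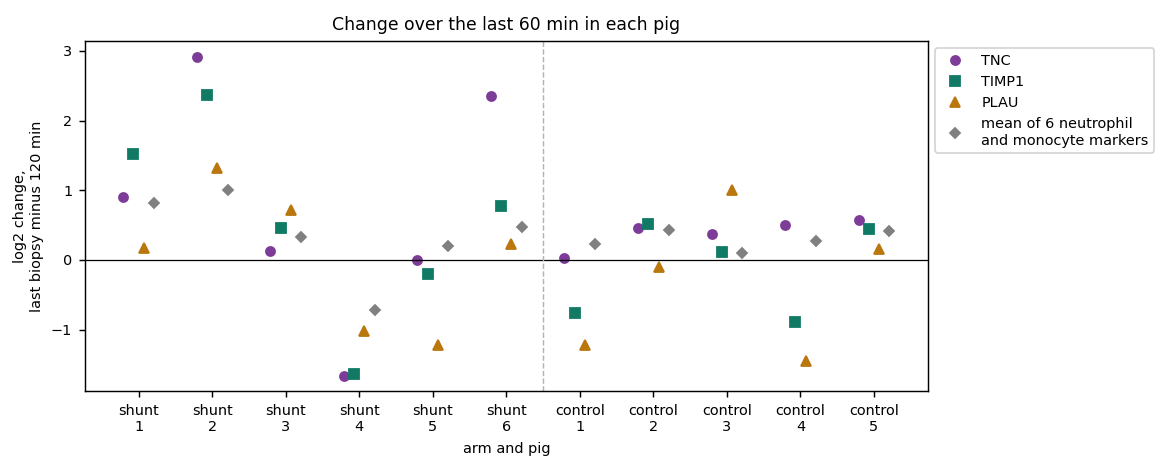
Log2 change from 120 min to the last biopsy in each pig (shunt pigs 1 to 6 on the left, control pigs 1 to 5 on the right) for TNC, TIMP1, PLAU and the mean of 6 neutrophil and monocyte markers. Shunt pig 2 has the highest values of TNC, TIMP1 and the marker mean and shunt pig 4 the lowest.

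The change over the whole course, last biopsy minus baseline, was also compared between the 2 arms. A single probe set of 23999 passed (0.00417%), that of the RNA-binding gene RBM3, which is named because it was the only one. TNC had changed by 2.504 ± 0.39 in shunt pigs and 0.89 ± 0.43 in control pigs. The difference of 1.61 ± 0.58 (3.05-fold, 95% CI 0.41 to 2.81) did not pass after adjustment (limma adjusted p = 0.256). By its log2 value alone this difference ranked 15 from the highest. TIMP1 had changed by 2.86 ± 0.36 in shunt pigs and 1.55 ± 0.39 in control pigs, a difference of 1.30 ± 0.53 (2.46-fold, 95% CI 0.21 to 2.40, limma adjusted p = 0.317). For both genes the shunt arm had the larger change already at 120 min, before any shunt was opened, with differences there of 1.22 for TNC and 0.64 for TIMP1. Without shunt pig 4 the differences were 1.94 for TNC (limma adjusted p = 0.0615) and 1.68 for TIMP1 (0.0671), within ranges of adjusted p over all alternatives of 0.0615 to 0.656 for TNC and 0.0671 to 0.773 for TIMP1.

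For the other 5 genes the whole-course difference was smaller. CYR61 had changed by 3.09 in shunt pigs and 3.08 in control pigs, a difference of 0.013 (95% CI -1.09 to 1.12). THBS1 had changed by 2.17 in shunt pigs and 2.21 in control pigs, a difference of -0.040 (95% CI -0.92 to 0.84). PLAU differed by 0.57 (95% CI -0.44 to 1.59), COL3A1 by 0.20 (95% CI -0.23 to 0.64) and LUM by -0.18 (95% CI -0.57 to 0.22), and the smallest adjusted p of these 5 was 0.707.

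The arms were also compared at baseline, where 5 probe sets of the array passed (0.0208%). These were MYO5B, RETSAT, SLC2A1 and 2 probe sets without a gene name, given because they were so few. LUM averaged 11.13 ± 0.48 in shunt pigs and 10.48 ± 0.50 in control pigs (SD), a difference of 0.65 ± 0.25 (limma adjusted p = 0.336). COL3A1 averaged 5.90 ± 0.24 in shunt pigs and 5.53 ± 0.33 in control pigs, a difference of 0.37 ± 0.15 (limma adjusted p = 0.372). The remaining 5 genes differed by -0.22 for PLAU to 0.57 for CYR61 with adjusted p-values of 0.573 or more.

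The likeness of patterns was measured by Pearson's r over the 33 arrays after the mean of each pig was subtracted, so arrays of a pig are not independent and the shared step from baseline to 120 min enters every value. The 7 genes formed a gradient. CYR61 and THBS1 had r = 0.969 with each other and TIMP1 and PLAU r = 0.935. TNC was closest to TIMP1 (r = 0.888) and farther from CYR61 (r = 0.679). COL3A1 lay between 0.738 and 0.852 with the other genes that were higher, and LUM ran opposite to all 6, from -0.412 with THBS1 to -0.600 with COL3A1.

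Among 6758 other genes, those most like CYR61 were IER3 (r = 0.987), IER5 (r = 0.978) and ABRA (r = 0.976), of which IER3 and IER5 are immediate early genes and ABRA encodes an actin-binding protein of striated muscle. THBS1 was most like the chemokine gene CCL2 (r = 0.981), the transcription factor gene MYC (r = 0.973) and IER3 (r = 0.967). The neighbours of TNC were NOP2 (r = 0.965), NSUN2 (r = 0.960) and FBL (r = 0.938), genes for RNA methyltransferases. TIMP1 was most like the translation initiation helicase gene EIF4A1 (r = 0.974), the interleukin 4 receptor gene IL4R (r = 0.970) and the nucleolar helicase gene DDX21 (r = 0.968). PLAU was closest to PGM2 (r = 0.969), MID1IP1 (r = 0.962) and LITAF (r = 0.959), and COL3A1 to CTSV (r = 0.914), MAPK6 (r = 0.911) and ARRDC4 (r = 0.899). LUM had the weakest neighbours, FAM149A (r = 0.853), FAM3C (r = 0.838) and FAP (r = 0.806), the last a fibroblast surface protease.

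The 7 genes were set beside 110 other measured genes in 11 lists of matrix, receptor and signalling genes. At 120 min 21 of the 110 were higher (19.1%) and 10 lower (9.09%), with a median change of 0.046, against 13.1% higher, 20.8% lower and a median of -0.023 over all 6765 genes. Of 9 other matricellular genes none passed in limma, and their median change was -0.097. Those with the smallest p were TNXB (-0.23 ± 0.09, adjusted p = 0.0709), SPARCL1 (-0.12 ± 0.08), LGALS3 (-0.19 ± 0.12) and THBS3 (-0.11 ± 0.08), and periostin, POSTN, which like TNC marks matrix remodelling, had a change of -0.060 ± 0.08. At an unadjusted p under 0.05 TNXB alone of these 9 would count.

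In the plasminogen system 2 of 6 genes rose (33.3%, where 13.1% of all genes were higher) and none fell. SERPINB2, a plasminogen activator inhibitor that acts on urokinase, rose by 2.10 ± 0.24 (4.30-fold) and PLAT, tissue plasminogen activator, by 0.66 ± 0.17 (1.58-fold). Among 12 metalloproteinases 2 rose (16.7%, near the same 13.1%). They were the versican-cleaving ADAMTS1 (0.90 ± 0.15) and the sheddase ADAM17 (0.28 ± 0.07), while MMP9 had 0.16 ± 0.07 and did not pass. TIMP3, the matrix-bound inhibitor, rose by 0.60 ± 0.12 and was the only one of the 4 other inhibitors to pass (25%), with TIMP2 at 0.12 ± 0.07 and TIMP4 at 0.13 ± 0.06.

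Of 15 genes for fibrillar collagens and their processing 3 fell (20%) and none rose, where 20.8% of all genes were lower. The 3 were enzymes or chaperones of collagen synthesis, the prolyl hydroxylase subunit P4HA2 (-0.42 ± 0.09), the lysyl hydroxylase PLOD1 (-0.20 ± 0.06) and the collagen chaperone SERPINH1 (-0.22 ± 0.08). Of 9 basement membrane and other collagen genes 3 fell (33.3%), COL15A1 (-0.30 ± 0.09), LAMB2 (-0.20 ± 0.07) and LAMC1 (-0.15 ± 0.06). Among 8 proteoglycan genes SRGN, a proteoglycan of secretory granules in blood cells, rose by 0.74 ± 0.14 and ACAN by 0.16 ± 0.05, while PRELP, of the same family as LUM, fell by 0.26 on the log2 scale. None of 7 fibronectin and elastic fibre genes passed, with a median change of -0.097 and FBN1, at -0.19 ± 0.08, the only one with an unadjusted p under 0.05. Of 7 measured fibroblast markers 2 fell (28.6%, beside the same 20.8%), FAP (-0.33 ± 0.10) and THY1 (-0.24 ± 0.07), and none passed in the upward direction. TCF21, a fibroblast transcription factor gene, had 0.35 ± 0.14 (limma adjusted p = 0.0554).

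Of 13 matrix receptors 5 rose (38.5%, where 13.1% of all genes were higher) and 1 fell (7.69%, where 20.8% of all genes were lower). Those that rose included the fibronectin receptor subunit ITGA5 at 0.90 ± 0.10, ITGB3 at 0.65 ± 0.16, the syndecan SDC4 at 0.46 ± 0.08 and ITGB1 at 0.22 ± 0.06. In the TGF-beta pathway 4 of 12 rose (33.3%) and 1 fell (8.33%), beside the same shares of all genes. Among them were the signal transducer SMAD3 (0.63 ± 0.11) and the repressor TGIF1 (0.54 ± 0.12), with SMAD4, the common partner of the SMAD proteins, lower (-0.28 ± 0.06). Of 15 targets of YAP, TAZ and MRTF, factors that respond to cell tension and for which CYR61 is itself a textbook target, 5 rose (33.3%) and 1 fell (6.67%). They included the smooth muscle gene CNN1 (1.14 ± 0.12), the tissue factor gene F3 (1.07 ± 0.17) and the cardiac stretch-responsive gene ANKRD1 (0.77 ± 0.07), while AMOTL1 was lower (-0.29 ± 0.05). CNN1 and TAGLN, which both rose, are also in the list of smooth muscle and pericyte markers, so the lists overlap. None of the 110 genes passed in limma in the later comparisons or between the arms. At an unadjusted p under 0.05 there were 4 in the later change of shunt pigs, 1 in that of control pigs and 0 in their difference, with 8 in the arm difference at 120 min, 22 in that of the whole course and 13 at baseline. In the same order, the shares of all 23999 probe sets were 8.94%, 3.07%, 3.07%, 6.9%, 12.2% and 11.8%. The units differ, since the counts are out of 110 genes with 1 probe set each. The 23999 also include dimmer sets of the same genes and sets without a single gene symbol.

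**Figure D5:**
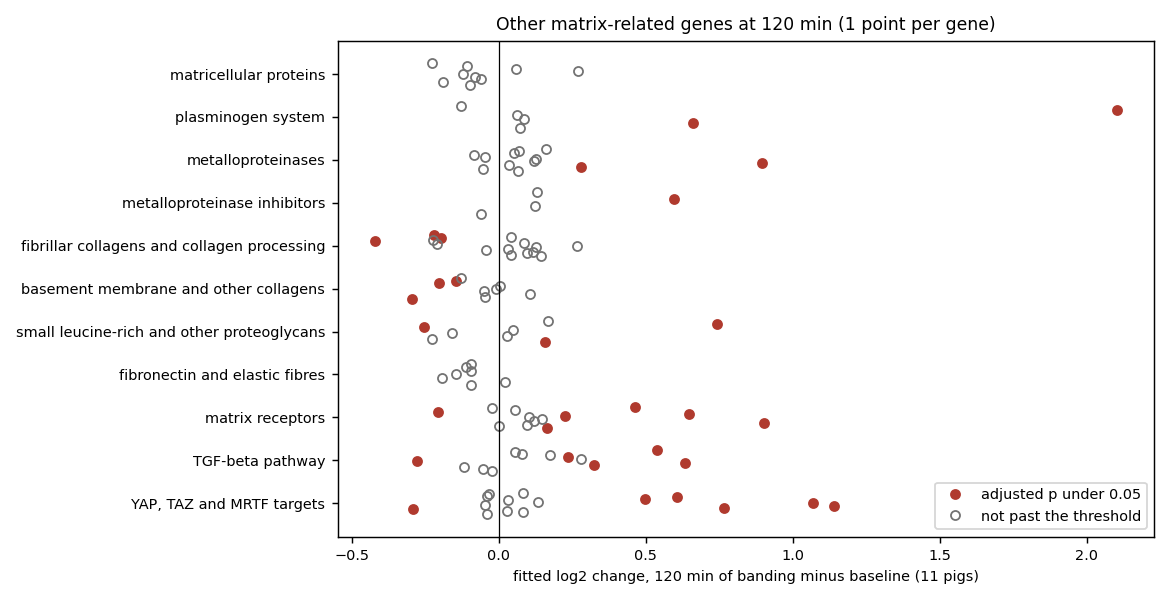
Fitted log2 change at 120 min of banding minus baseline over 11 pigs for the 110 other genes, 1 point per gene and 1 row per list. Filled points passed an adjusted p of 0.05 and open points did not; SERPINB2 at 2.10 lies farthest right, and the collagen and basement membrane rows hold only falls among the filled points.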

How the data were processed

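RNA from 33 biopsies was hybridised to the Affymetrix Porcine Genome Array. The deposited values are log2 RMA summaries, per the submitters' processing notes. No label states the version of RMA or which arrays it was run on together. Values ran from 2.21 to 15.2 with array medians of 6.10 to 6.17, and were used as deposited. The number of arrays, not a read depth, limits the precision. Of 24123 probe sets, 124 controls were left out and 23999 tested. Symbols came from the platform annotation.

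Changes were fitted with limma 3.58.1 (lmFit, eBayes) in R 4.3.3 on all arrays, with pig as a fixed block and biopsy within arm (18 residual degrees of freedom), and the baseline comparison on the 11 baseline arrays. Tests were two-sided with Benjamini-Hochberg adjustment over 23999 probe sets and a threshold of 0.05. The labels give each pig at every biopsy, and after removal of group means 28 of 33 arrays had their highest correlation with an array from the same pig. Simulated data returned 98% of changed probe sets for the response at 120 min and 99.5% for the later change in the shunt arm. For the difference of the later change between the arms 92.5% were returned. In each case 200 of 23999 probe sets were changed by 1 on the log2 scale. These rates are shares of all changed probe sets and were not measured for the genes described here. The fitted SE of that later difference was 0.58 for TNC, 0.54 for CYR61, 0.53 for TIMP1 and 0.49 for PLAU. It was 0.42 for THBS1, 0.21 for COL3A1 and 0.19 for LUM. The rates therefore do not show that a change of 1 would have been found in these genes.

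Alternatives were median centring, a further quantile normalisation, no or a random pig block (statmod 1.5.0), only the arrays compared, trend with robust eBayes, the 30% dimmest probe sets left out, other THBS1 probe sets, each pig left out and each array set alone.

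The 7 genes, the lists and the rules were chosen with earlier results of these data known. All 7 were named whatever their values. The 3 most similar genes of each and, from each list, up to 4 genes with the smallest p at 120 min were also named, and POSTN, whose value was seen first.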

Additional observations from a re-analysis of the deposited data

Results flagged for a closer look

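In groups of 4 to 10 values, a value was looked at again if it was marked by Dixon's criterion at 95%. Its gap to the nearest other value was then a large share of the group's range. Each group held the levels at a biopsy, or the changes within pigs, of 1 gene in 1 arm. The changes come from the same arrays as the levels, so the groups are not independent. Of 70 groups of member probe sets 2 were marked, and chance alone marks about 1 in 20 groups. TIMP1 at the last biopsy of the control arm was 11.39 in pig 2, while the other 4 control pigs lay between 9.004 and 9.65; the same pig also had the highest TNC and PLAU of the control arm at that biopsy. PLAU at 120 min in the shunt arm was 8.842 in pig 3, the lowest of 6 values, the others lying between 9.82 and 10.19.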

How the results depend on the processing

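The 7 genes kept their direction at 120 min under every alternative run, and none passed in a later or arm comparison under any (lowest adjusted p 0.218 with other settings and 0.0615 with a pig left out). The response at 120 min had 6964 probe sets, against 4865 with no replicate block, 2369 in shunt pigs 1 to 4 alone, 454 in shunt pigs 5 and 6 alone and 1790 in control pigs alone, where fewer arrays were fitted. The whole-course difference had 1, against 0 with no replicate block and 0 with only the arrays compared, and 0 to 274 with a pig left out (274 without shunt pig 4, 118 without shunt pig 5). The later change in the shunt arm had 0, against 1 with pig as a random replicate block and 0 to 11 with a pig left out. The baseline difference had 5, against 1 with median centring, 1 with trend and robust eBayes, and 0 to 2 with a pig left out. The cause was not tested. Signs of values near 0 turned as follows. The later change in the shunt arm was 0.016 for LUM with median centring, and in shunt pigs 5 and 6 alone -0.25 for THBS1, -0.50 for PLAU, -0.17 for COL3A1 and 0.046 for LUM. For THBS1 it was -0.038 with the mean of its probe sets and -0.16 and -0.19 with other probe sets. Other THBS1 probe sets also gave -0.019 for the arm difference at 120 min, -0.044 and -0.091 at baseline, 0.017 for the later difference, and 0.18 and 0.48 for the whole course, whose value was 0.023 with the mean of the probe sets. With a pig left out, the later change in the shunt arm ran from -0.35 to 0.023 for CYR61, -0.054 to 0.24 for THBS1, -0.23 to 0.28 for PLAU, -0.0052 to 0.25 for COL3A1 and -0.10 to 0.095 for LUM, and in the control arm from -0.17 to 0.26 for CYR61 and -0.27 to 0.080 for TIMP1. The later difference between the arms ran from -0.26 to 0.082 for THBS1, -0.039 to 0.88 for TNC and -0.20 to 0.055 for COL3A1. The difference at 120 min ran from -0.029 to 0.72 for CYR61, -0.22 to 0.33 for THBS1, -0.12 to 0.56 for PLAU and -0.090 to 0.11 for LUM. The whole-course difference ran from -0.26 to 0.53 for CYR61 and -0.33 to 0.29 for THBS1, and the baseline difference from -0.017 to 0.47 for THBS1.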
